A study of Mus musculus with 14 samples.

Results

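The genes described here encode proteins that take up, bind and carry long-chain fatty acids, or have been described as doing so. They are the fatty acid binding proteins Fabp1, Fabp2, Fabp4 and Fabp5, the acyl-CoA binding protein gene Dbi and the membrane protein Cd36. The others are the fatty acid transport proteins Slc27a1, Slc27a2 and Slc27a4, and Got2, a mitochondrial aminotransferase also described at the plasma membrane. They were chosen by gene symbol, 10 of the 54532 genes in the count table, and all 10 were among the 13846 genes with enough counts to be tested. RNA was sequenced from the scraped ileum mucosa of 14 male mice fed a high fat diet (HFD) for 15 weeks, with 1 library per mouse. The 7 WT mice carried the floxed NCoR1 alleles (NCoR1 flox/flox) without Cre, and the 7 IKO mice carried the same alleles with Cre driven by the villin promoter, which is active in the intestinal epithelium. The comparison asks how loss of the nuclear receptor corepressor NCoR1 from the intestinal epithelium changed the ileal transcriptome on this diet.

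In the small intestine, fatty acids released from dietary fat enter the enterocyte across the brush border, are bound in the cytosol by small carrier proteins, are coupled to coenzyme A and are then rebuilt into triglyceride or oxidized. Fabp1 and Fabp2 encode the liver-type and intestinal-type carriers of the enterocyte, while Fabp4 and Fabp5 are best known from adipocytes, endothelium, macrophages and skin. NCoR1 represses genes through nuclear receptors such as the PPARs, which as heterodimers with RXR bind direct repeats of a short hexamer spaced by 1 base, and Fabp1 and Cd36 are textbook PPAR target genes.

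The stretches of DNA below are shown because they precede the starts of Fabp1, which was called higher in IKO mice, and of Cd36, the membrane receptor of the set. They come from RefSeq promoter windows of GRCm38.p6, the assembly behind the mm10 build of the counts, are written 5′ to 3′ on the strand of the gene, and end 1 base before the earliest annotated start used. Capitals mark the best match to the PPAR/RXR-type repeat, AGGTCA followed by any 1 base and by AGGTCA again, on either strand, where it had at most 2 mismatches in the 2 hexamers.
Fabp1 (chr6:71199629-71199826, plus strand): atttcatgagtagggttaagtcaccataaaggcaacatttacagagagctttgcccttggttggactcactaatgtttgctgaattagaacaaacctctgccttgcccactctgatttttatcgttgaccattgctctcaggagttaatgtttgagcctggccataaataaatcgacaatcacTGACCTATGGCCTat
Cd36 (chr5:17835897-17836146, minus strand): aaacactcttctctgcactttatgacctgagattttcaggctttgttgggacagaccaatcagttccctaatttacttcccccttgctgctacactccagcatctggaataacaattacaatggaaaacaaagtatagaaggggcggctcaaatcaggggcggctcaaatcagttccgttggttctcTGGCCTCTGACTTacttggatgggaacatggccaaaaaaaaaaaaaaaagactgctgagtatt
Read on the opposite strand, the Fabp1 match was AGGCCATAGGTCA, with 1 mismatch, 67 bases before the RefSeq start. The Cd36 match was AAGTCAGAGGCCA, also on the opposite strand, with 2 mismatches and 63 bases before the RefSeq start. The Cd36 stretch lay between exons of longer Cd36 transcripts, which start further upstream. Over all 32851 promoter windows of 300 bases, 0.554% held a match with at most 1 mismatch and 3.86% a match with at most 2. Windows were found for 8 of the 10 genes, and 2 of these 8, Fabp1 and Cd36, had a match with at most 2 mismatches. These matches describe the letters in the windows and were not tested as binding sites.

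The targeted gene separated the genotypes. Ncor1 measured 135 ± 31.3 CPM (SD, n = 7) in WT mice and 50.6 ± 11.0 CPM in IKO mice, with no overlap, a log2 fold change of -1.41 (SE 0.18, edgeR adjusted p = 0.00051). The villin promoter leaves Ncor1 intact in the other cells of the scraped mucosa, and the counts cover the whole gene rather than its floxed exons. CPM are counts scaled to a common library size with TMM factors. Libraries held 14749669 to 21557468 counts. The share of mitochondrially encoded genes was 50.3% in IKO 4, 23.9% in WT 3 and 3.49% to 10.3% in the others. The labels name the cells as intestinal epithelial cells, and all 8 enterocyte markers examined were well counted, with a summed level between 15780 CPM (WT 7) and 72123 CPM (WT 2). Smooth muscle markers summed to 11104 CPM in WT 4, 829 CPM in IKO 1 and 398 CPM in IKO 2, and to at most 64.3 CPM in the other 11 mice. Of the 6 smooth muscle genes tested, edgeR and DESeq2 called 0, with 0 under 0.05 before adjustment. Nothing in the labels says whether mice shared a litter or a cage, and in bulk tissue fewer cells of a type and less RNA per cell cannot be told apart.

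Of the 10 genes, Fabp1 and Dbi were called higher in IKO mice (edgeR, adjusted p under 0.05), none was called lower and 8 did not pass. Over all genes tested, 4.38% were called higher, 4.28% lower and 8.67% in either direction. The fitted log2 fold change was above 0 for 7 of the 10 genes, against 43.5% of all genes, and its median was 0.25 against -0.09 over all genes. Of these 7, Slc27a2 was at only 0.0025 (edgeR adjusted p = 0.997). Dbi alone had IKO values that were all above the WT values, which 1.83% of all genes had. Before adjustment Fabp5 alone was under 0.05 in the lower direction. Over all genes, 11.9% were under 0.05 before adjustment in the higher and 18.5% in the lower direction. DESeq2 called Fabp1 and Dbi higher and 0 lower, with 6.41% of its genes called higher and 7.36% lower.

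**Figure D1:**
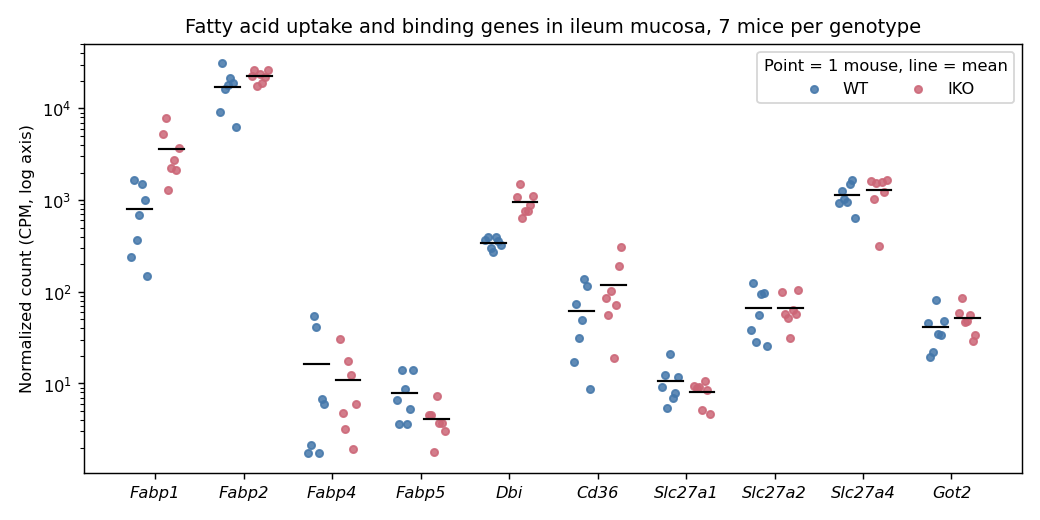
Normalized counts (CPM, log axis) of the 10 genes, 1 point per mouse, with the mean of 7 mice per genotype as a line. Fabp2 lies at the top in both genotypes, the WT and IKO points of Dbi do not overlap, and those of Fabp1 overlap only through IKO 3.

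Fabp2 was by far the most abundant member per unit length. In WT mice the FPKM, counts per kilobase of gene length scaled for depth, averaged 17508 ± 8268 for Fabp2 and 1423 ± 1086 for Fabp1 (SD, n = 7). Slc27a4 followed at 252 ± 81.9 FPKM and Dbi at 237 ± 34.8 FPKM, and these neighbours were not separated, since Slc27a4 was the higher in 5 of 7 mice. Next came Slc27a2 at 17.3 ± 10.2 FPKM and Cd36 at 16.9 ± 13.6 FPKM, with Slc27a2 the higher in 4 of 7 mice. Got2 (8.27 ± 4.27), Fabp4 (3.51 ± 4.70), Fabp5 (2.17 ± 1.19) and Slc27a1 (1.77 ± 0.85 FPKM) were at the low end, each overlapping the next. The deposited length of Fabp4, 4489 bases, equals its whole genomic span, introns included, and that of Fabp5 is 3567 of 4060 bases, so their FPKM are counts divided by lengths that include intron bases.

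In IKO mice the order changed at 1 clear point. Dbi reached 681 ± 209 FPKM and Slc27a4 290 ± 110 FPKM, and Dbi was above Slc27a4 in 7 of 7 mice without overlap of the ranges. Fabp2 stayed first at 23359 ± 3493 FPKM and Fabp1 second at 6532 ± 4144 FPKM, also without overlap between them. Below these, Cd36 (33.5 ± 28.1 FPKM) and Slc27a2 (17.7 ± 7.02 FPKM) overlapped, Cd36 being the higher in 5 of 7 mice.

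Among the cytosolic carriers, Fabp1 (ENSMUSG00000054422, chromosome 6, 71199827 to 71205023) showed the largest fitted change of the 10 genes. WT levels ran from 148 CPM (WT 7) through a median of 681 to 1677 CPM (WT 2), and IKO levels from 1285 CPM (IKO 3) through a median of 2727 to 7949 CPM (IKO 2). WT 7, WT 1 and WT 3 were the low WT mice, at 148, 238 and 365 CPM, and IKO 1 and IKO 2 were the high IKO mice, at 5235 and 7949 CPM. Each of the 7 IKO mice exceeded the WT median and 6 exceeded the highest WT mouse. IKO 3 lay below WT 2 and WT 5. Fabp1 rose 4.50-fold (95% interval 2.01 to 10.1), a log2 fold change of 2.17 (SE 0.55, edgeR adjusted p = 0.0277).

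Leaving out single mice ended the call for Fabp1 in 3 of 14 cases and never its direction. The edgeR adjusted p was 0.05001 without WT 4, 0.0573 without IKO 1 and 0.0559 without IKO 2, all just short of the threshold, with log2 fold changes of 2.13, 2.06 and 1.85. Without these 3 mice, those with the highest smooth muscle marker sums, the log2 fold change was 1.55 and the edgeR adjusted p was 0.175. IKO 1 and IKO 2 also had the lowest distal small intestine marker sums of the IKO mice, 1850 and 1729 CPM. The other IKO mice had 3318 to 7210 CPM, and the one at 3318 CPM was next highest in Fabp1. In WT mice, WT 6, WT 5 and WT 2 had the lowest distal sums, 1843, 2116 and 3262 CPM. These same WT mice had the highest WT levels of Fabp1, 1011, 1497 and 1677 CPM. The order was not complete, since WT 4, with the highest distal sum of 10118 CPM, was at the WT median of Fabp1, 681 CPM. With the distal marker sum, which pools 7 genes, as a covariate the log2 fold change of Fabp1 was 2.09 (edgeR adjusted p = 0.00999). With the enterocyte marker sum it was 2.16 (edgeR adjusted p = 0.0130).

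Fabp2 (ENSMUSG00000023057, chromosome 3, 122895072 to 122899506) ranged from 6221 CPM (WT 7) through a median of 18205 to 30938 CPM (WT 2) in WT mice. In IKO mice it ranged from 17486 CPM (IKO 3) through a median of 22828 to 26282 CPM (IKO 7). The IKO range lay inside the WT range, and the coefficient of variation was 47.2% in WT and 14.8% in IKO mice. The difference did not pass the test at 1.30-fold (95% interval 0.81 to 2.08, edgeR adjusted p = 0.435). An antisense gene that overlaps Fabp2, 4933405D12Rik, had 1189 counts over all WT and 2214 over all IKO libraries, small beside the 175811 counts of Fabp2 in its lowest library.

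Measured within each mouse, the balance of both enterocyte carriers differed between the genotypes. Fabp1 made up 3.77% to 10.9% of the summed FPKM of Fabp1, Fabp2, Fabp4 and Fabp5 in WT mice, with a mean of 6.62 ± 2.78%, and 11.4% to 34.8% in IKO mice, with a mean of 20.4 ± 8.50% (SD, n = 7 each). The lowest IKO mouse, IKO 3 at 11.4%, stood just above the highest WT mouse, WT 5 at 10.9%. The log2 ratio of Fabp1 to Fabp2 CPM was -4.73 ± 0.66 in WT and -2.86 ± 0.74 in IKO mice, a difference of 1.87. All 7 IKO mice were above the highest WT mouse (two-sided exact permutation over the mice, p = 0.000583, which no division into 7 and 7 can go below, and 0.00233 after adjustment over 4 ratios). IKO 4, whose mitochondrial share was 50.3%, had a Fabp1 share of 14.1%, within the range of the other IKO mice.

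**Figure D2:**
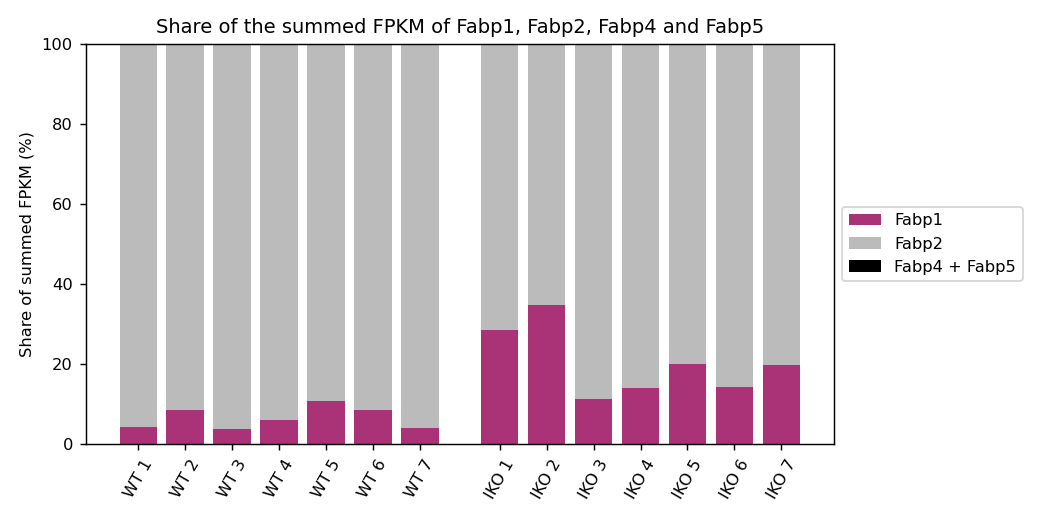
Share of the summed FPKM of the 4 binding protein genes in each mouse, as stacked bars from 0 to 100%. Fabp1 takes 3.77% to 10.9% in WT and 11.4% to 34.8% in IKO mice, Fabp2 takes nearly all of the rest, and Fabp4 with Fabp5 are too few to be visible.

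The carriers better known from other tissues were scarce in this mucosa. Fabp4 (chromosome 3, 10204088 to 10208576) had a median of 6.02 CPM in both genotypes. WT 3 at 53.8 CPM, WT 4 at 41.5 CPM and IKO 1 at 30.5 CPM were high, while the other mice lay between 1.73 and 17.5 CPM. The log2 fold change was -0.58 (SE 0.83, edgeR adjusted p = 0.665), and it turned to 0.12 without WT 3 and to 1.41 without WT 3, WT 4 and IKO 4. Endothelial markers moved with these values in part, since their sums were highest in WT 4 (46.7 CPM) and WT 3 (34.1 CPM), but IKO 1 summed to 10.2 CPM. Of the 7 endothelial markers tested edgeR and DESeq2 called 0, with 1 lower before adjustment, against 18.5% of all genes. Of the 7 adipocyte markers 2 passed the filter and edgeR and DESeq2 called 0 (1 higher before adjustment, against 11.9% of all genes). The adipocyte sums, carried mostly by Cidec, were 22.1 to 172 CPM in WT and 83.0 to 180 CPM in IKO mice. IKO 1 was the highest of all 14 mice in this sum. The adipocyte hormones Adipoq and Lep averaged 0.57 and 1.30 CPM in WT and 1.68 and 0.62 CPM in IKO mice. The part of these cells in the Fabp4 level was not tested.

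Fabp5 (chromosome 3, 10012548 to 10016607) was the member with the most nearly called lower level. WT mice had 3.61 to 13.9 CPM with a median of 6.66, and IKO mice 1.77 to 7.21 CPM with a median of 3.67. WT 3 and WT 7 were highest at 13.9 CPM each, and 1 of 7 IKO mice, IKO 4, exceeded the WT median. The level in IKO mice was 0.51 times that in WT mice (95% interval 0.30 to 0.87), which did not pass (edgeR adjusted p = 0.0933). It was under 0.05 before adjustment, as were 18.5% of all genes in the lower direction. Macrophage markers had their highest sums in the same pair, WT 7 (173 CPM) and WT 3 (118 CPM), and their part in the Fabp5 level was not tested. The log2 ratio of Fabp5 to Fabp4 differed by -0.99 between genotypes and did not pass (exact permutation test, adjusted p = 0.274).

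Dbi (ENSMUSG00000026385, chromosome 1, 120113280 to 120121078) encodes the protein that binds acyl-CoA esters, the activated form of fatty acids, in the cytosol. WT mice ranged from 270 CPM (WT 4) through a median of 355 to 401 CPM (WT 2), the tightest WT values of the 10 genes with a coefficient of variation of 14.2%. IKO mice ranged from 641 CPM (IKO 3) through a median of 890 to 1516 CPM (IKO 2). The lowest IKO mouse stood well above the highest WT mouse. Dbi rose 2.81-fold (95% interval 2.07 to 3.80), a log2 fold change of 1.49 (SE 0.21, edgeR adjusted p = 0.00089). It was called in all 29 alternative analyses, with log2 fold changes of 1.23 to 1.55 and an adjusted p of at most 0.0135 over edgeR, DESeq2 and limma.

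IKO 2 was highest and IKO 3 lowest for both Fabp1 and Dbi among IKO mice. Among WT mice, WT 2 was highest and WT 5 second for both genes, while the lowest mouse was WT 7 for Fabp1 and WT 4 for Dbi. Without WT 4, IKO 1 and IKO 2, Dbi kept its call at a log2 fold change of 1.23 (edgeR adjusted p = 0.00859).

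**Figure D3:**
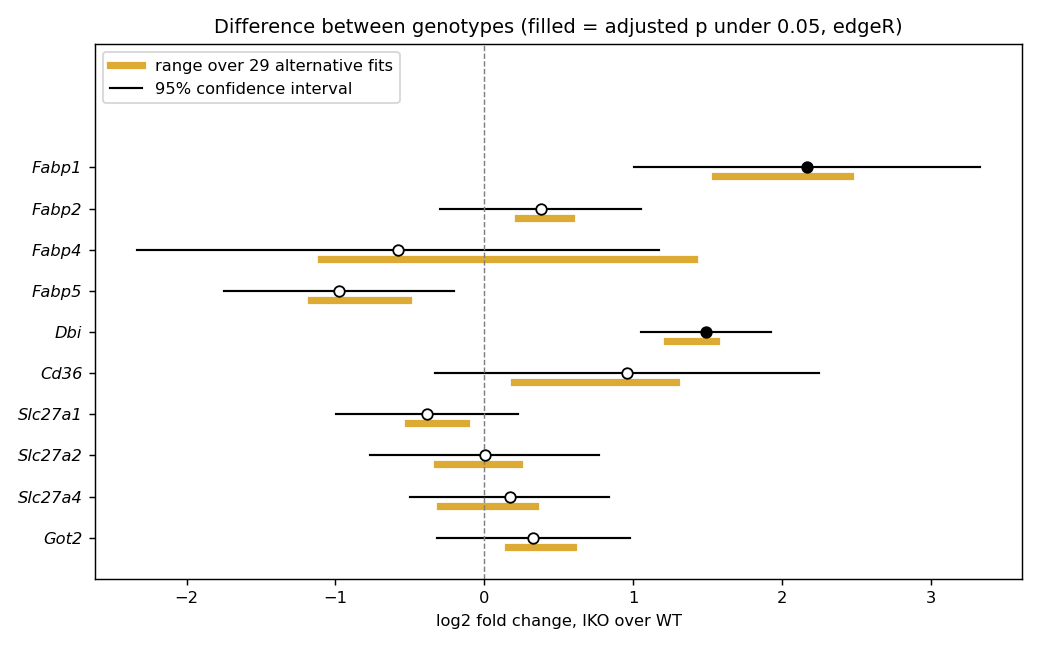
Fitted log2 fold change of each gene, IKO over WT, with its 95% confidence interval (black) and the range over 29 alternative analyses (yellow), filled where the adjusted p was under 0.05. Fabp1 and Dbi alone are filled, and the yellow ranges of Fabp4, Slc27a2 and Slc27a4 cross 0.

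At the membrane, Cd36 (ENSMUSG00000002944, chromosome 5, 17781690 to 17888801), a scavenger receptor that binds long-chain fatty acids, spread 15.6-fold among WT mice and 16.6-fold among IKO mice. WT mice ran from 8.78 CPM (WT 7) through a median of 49.3 to 137 CPM (WT 5), and IKO mice from 18.8 CPM (IKO 4) through a median of 85.6 to 311 CPM (IKO 7). IKO 7 and IKO 6, at 311 and 192 CPM, were above all WT mice and the other 5 IKO mice fell within the WT range. The difference was 1.94-fold (95% interval 0.79 to 4.75, edgeR adjusted p = 0.292) and did not pass in any of the 29 alternatives, and the interval includes both no difference and a rise of several-fold. Without IKO 7 the log2 fold change went from 0.96 to 0.51.

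The mice with few enterocyte marker counts were also low in Cd36. The lowest mice for Cd36 were WT 7, WT 1, IKO 4 and WT 3, and the same 4 mice had the lowest enterocyte marker sums, 15780, 24348, 21793 and 25938 CPM. At the other end the order was not shared, since WT 2 and IKO 5, with the highest marker sums of 72123 and 67023 CPM, had 73.4 and 72.3 CPM of Cd36, and IKO 7, at 61302 CPM of markers, had 311 CPM. WT 7, WT 3, IKO 4 and WT 1 were also the lowest mice for Slc27a2, at 25.5, 28.1, 31.0 and 38.7 CPM. WT 7, WT 1 and WT 3 were the lowest for Fabp1 and Fabp2, and IKO 4 was not low there. IKO 4 and WT 3 had the highest mitochondrial shares, 50.3% and 23.9%. With the enterocyte marker sum as a covariate, an alternative chosen after seeing the data, the log2 fold change of Cd36 was 0.20 (edgeR adjusted p = 0.775), while those of Fabp1 and Dbi were 2.16 and 1.47 and both were called. Of the 8 enterocyte markers 0 were called between genotypes, by edgeR or DESeq2, and 0 were under 0.05 before adjustment. Still, 6 were fitted above 0, with a median log2 fold change of 0.32, while Alpi (-0.45) and Sis (-0.21) were below. The largest terms of the sum were Apoa1 (mean 16865 CPM in WT, 20768 in IKO mice) and Anpep (8361 and 13602 CPM). For Anpep, 5 of 7 IKO mice exceeded the highest WT mouse. What the covariate took from the Cd36 difference was not tested.

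**Figure D4:**
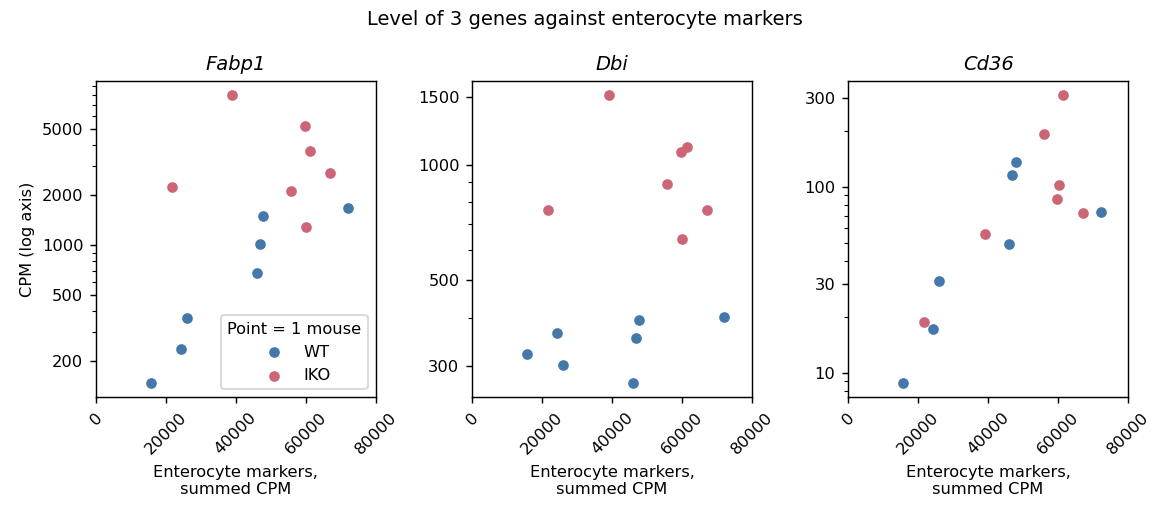
CPM (log axis) of Fabp1, Dbi and Cd36 against the summed CPM of 8 enterocyte markers, 1 point per mouse. The 4 mice lowest in the markers are lowest in Cd36 while the highest Cd36 values lie at middle to high marker levels, and the IKO points of Dbi lie above all WT points.

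Slc27a4 (chromosome 2, 29802634 to 29817522), the main fatty acid transport protein of the enterocyte, ranged from 631 through a median of 1030 to 1671 CPM in WT mice. In IKO mice it ranged from 319 through a median of 1518 to 1660 CPM. IKO 4, the library with 50.3% mitochondrial counts, was the lowest of all 14 mice. WT 7 came next, and both were low in enterocyte marker sum, at 21793 CPM (IKO 4) and 15780 CPM (WT 7). The fold of 1.13 (95% interval 0.71 to 1.79, edgeR adjusted p = 0.744) did not pass. Slc27a4 formed 93.2 ± 2.33% of the summed FPKM of the 3 transport proteins in WT and 93.3 ± 2.27% in IKO mice (SD, n = 7 each).

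Slc27a2 (chromosome 2, 126552407 to 126588243), which also activates very long-chain fatty acids, averaged 66.1 ± 38.7 CPM in WT and 66.2 ± 26.3 CPM in IKO mice. Its values ran from 25.5 through a median of 55.8 to 124 CPM in WT mice and from 31.0 through a median of 57.2 to 105 CPM in IKO mice. The fold was 1.00 with a 95% interval of 0.59 to 1.71 (edgeR adjusted p = 0.997), so that folds within those bounds remain compatible with these values. The log2 ratio of Slc27a4 to Slc27a2 differed by -0.06 (exact permutation test, adjusted p = 0.844).

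Slc27a1 (chromosome 8, 71568882 to 71587302), best known from muscle and fat, was low, at 5.37 through a median of 9.15 to 20.8 CPM in WT mice and 4.64 through a median of 8.90 to 10.7 CPM in IKO mice. WT 4, with the high smooth muscle sum, was the highest mouse. The log2 fold change was -0.39 (SE 0.29, edgeR adjusted p = 0.374), and it was -0.13 without WT 4.

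Got2 (chromosome 8, 95864134 to 95888547) encodes the mitochondrial aspartate aminotransferase, which has also been described as a fatty acid binding protein of the plasma membrane. It ranged from 19.3 through a median of 34.8 to 82.3 CPM in WT and from 29.0 through a median of 47.9 to 86.6 CPM in IKO mice. WT 4 and IKO 2 were the high mice. The difference did not pass at 1.26-fold (95% interval 0.80 to 1.97, edgeR adjusted p = 0.484), and its log2 fold change of 0.33 was 0.60 without WT 4 and 0.16 without IKO 2. A processed copy, Got2-ps1, had 96 counts over the WT and 74 over the IKO libraries.

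**Figure D5:**
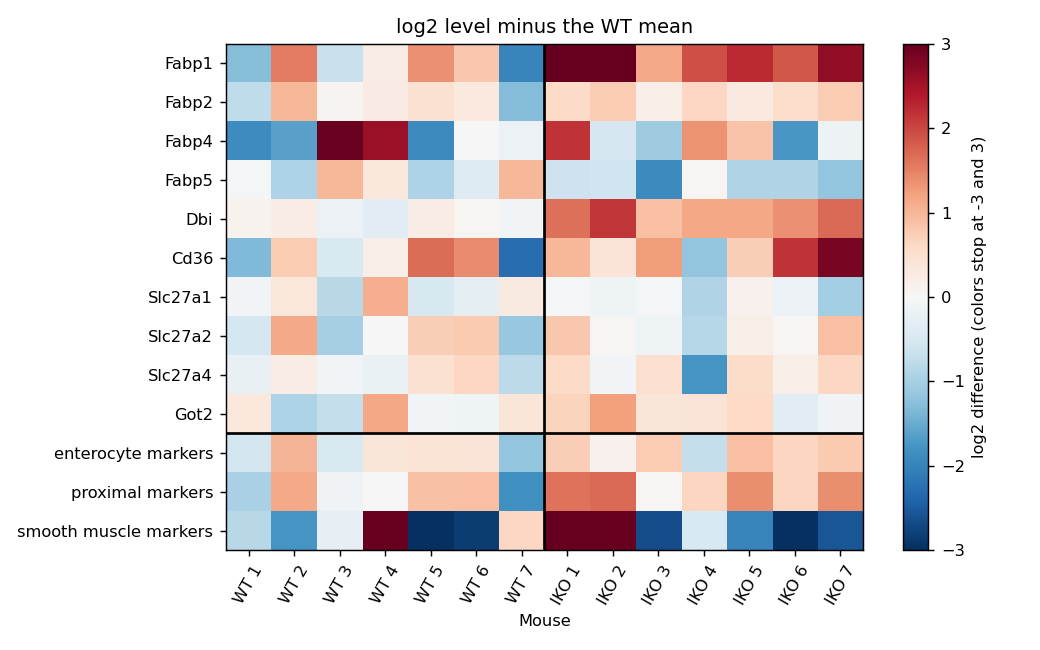
Log2 level of each gene, and of the summed enterocyte, proximal small intestine and smooth muscle markers, in each of the 14 mice minus the WT mean, with colors that stop at -3 and 3. Dbi and Fabp1 are above 0 in all 7 IKO mice, and Cd36 is below 0 in WT 1, WT 3, WT 7 and IKO 4.

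The summed level of proximal small intestine markers followed Fabp1 in part, through 1 gene. The proximal small intestine markers, of which 5 of 6 were tested and edgeR called 0 (1 under 0.05 before adjustment, and 1 higher and 1 lower with DESeq2), summed to 679 through a median of 2461 to 5342 CPM in WT mice and 2485 through a median of 6429 to 7877 CPM in IKO mice. WT 7 and WT 1 were lowest in both Fabp1 and this sum, IKO 3 was the lowest IKO mouse and IKO 2 and IKO 1 the highest in both. Most of the sum was Rbp2, the retinol binding protein of the enterocyte, at 2127 ± 1243 CPM in WT and 5014 ± 2011 CPM in IKO mice (edgeR adjusted p = 0.0713). Lct, the lactase gene, was at 799 ± 590 and 398 ± 225 CPM (edgeR adjusted p = 0.254), and the proximal transcription factor gene Gata4 at 51.9 ± 32.5 and 51.9 ± 11.4 CPM. Of the 7 distal markers edgeR called 0 (1 lower before adjustment, and 1 lower with DESeq2), with sums of 1843 to 10118 CPM in WT and 1729 to 7210 CPM in IKO mice. Fabp6, the ileal bile acid carrier of the same protein family, was among them, and the log2 ratio of Fabp1 to Fabp6 spread from -4.97 to 3.01 in WT and from -1.46 to 7.72 in IKO mice. Its difference of 3.28 did not pass (exact permutation test, adjusted p = 0.205). The part of the position sampled in the Fabp1 level was not tested beyond the distal covariate. The sums of the 5 crypt and cycling markers were 141 to 398 CPM in WT and 145 to 269 CPM in IKO mice. Of these 5, edgeR called 0, DESeq2 called 1 lower and 3 were lower before adjustment. Over all genes 18.5% were lower and 11.9% higher before adjustment. DESeq2 called 6.41% of its genes higher and 7.36% lower. Of the 8 macrophage markers 2 were fitted above 0 and the median log2 fold change was -0.33. Cd14 alone was called higher by edgeR and 0 were called lower, against 4.38% and 4.28% of all genes.

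Relatives of the 10 genes outside the set were mostly too low to test. Of 13 other genes of the FABP and SLC27 families, 4 were tested, among them Fabp6, Rbp2 and Slc27a3, edgeR called 0 and the median log2 fold change was -0.75. Before adjustment 1 was higher and 1 lower, and DESeq2 called 1 higher. Slc27a3 measured 1.39 ± 0.64 CPM in WT and 0.66 ± 0.38 CPM in IKO mice (edgeR adjusted p = 0.112). Of 7 other genes with an acyl-CoA binding domain, 5 were tested, with a median of -0.06 and 1 called higher, against 4.38% of all genes. One was called, Eci2, a peroxisomal enoyl-CoA isomerase that carries such a domain, which rose from 44.2 ± 3.74 to 67.1 ± 12.1 CPM without overlap (log2 fold change 0.60, SE 0.13, edgeR adjusted p = 0.0156). The other 4 (Acbd3, Acbd4, Acbd5 and Acbd6) were between -0.37 and 0.15 on the same scale.

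Of 13 other genes for fatty acid entry and sensing, 11 were tested, and 1 was called higher and 1 lower. Over all genes 4.38% were called higher and 4.28% lower. The median log2 fold change of the list was -0.83, against -0.09 over all genes. Before adjustment 1 was higher and 2 lower, and DESeq2 called 1 higher and 1 lower. Mfsd2a, a transporter of lysophosphatidylcholine, rose from 12.6 ± 7.96 to 42.8 ± 18.8 CPM (log2 fold change 1.77, SE 0.42, edgeR adjusted p = 0.0204). Ffar1, a receptor for long-chain fatty acids found on enteroendocrine cells, fell from 4.82 ± 1.97 to 2.38 ± 0.58 CPM (log2 fold change -1.02, SE 0.30, edgeR adjusted p = 0.0487). Ffar4, another long-chain fatty acid receptor, was at 3.37 ± 2.05 and 3.50 ± 0.85 CPM.

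Genes for the steps after uptake were examined beside the 10 members. Of 17 genes for activation, re-esterification and export, 16 were tested, 15 had a log2 fold change above 0, 4 were called higher and 0 lower, and the median was 0.49, against 43.5% above 0, 4.38% called higher and a median of -0.09 over all genes. The lipid droplet coat gene Plin2 rose from 52.9 ± 10.4 to 196 ± 46.4 CPM (log2 fold change 1.89, SE 0.18, edgeR adjusted p = 7.6e-05). Plin3, of the same coat family, rose from 270 ± 88.7 to 575 ± 90.6 CPM (log2 fold change 1.09, SE 0.22, edgeR adjusted p = 0.00959), also without overlap. The acyl-CoA synthetase genes Acsl1 and Acsl3 rose with log2 fold changes of 0.97 (edgeR adjusted p = 0.0333) and 1.27 (edgeR adjusted p = 0.0455). Acsl5, the most abundant of that family here by CPM, was at 1242 ± 732 and 1615 ± 977 CPM (edgeR adjusted p = 0.634), and Mttp, which loads triglyceride onto chylomicrons, was at 1738 ± 1051 and 3453 ± 1777 CPM (edgeR adjusted p = 0.177).

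Of 12 lipid-sensing transcription factors and partners, all tested, 2 were called higher and 0 lower, with a median log2 fold change of 0.28. The shares over all genes were 4.38% higher and 4.28% lower, with a median of -0.09. Ppara rose from 20.02 ± 10.3 to 58.7 ± 31.3 CPM (log2 fold change 1.55, SE 0.40, edgeR adjusted p = 0.0285). Ppard rose from 86.9 ± 12.8 to 146 ± 37.7 CPM without overlap (log2 fold change 0.74, SE 0.17, edgeR adjusted p = 0.0192). Pparg was at 5.05 ± 1.21 and 5.68 ± 2.66 CPM. All 6 partners of Got2 in the malate-aspartate shuttle were fitted above 0, with a median of 0.76, and 3 were called higher, against the same 4.38% of all genes. These were the cytosolic aminotransferase Got1 (log2 fold change 1.06, edgeR adjusted p = 0.0106), the cytosolic malate dehydrogenase Mdh1 (0.91, edgeR adjusted p = 0.0239) and the oxoglutarate carrier Slc25a11 (0.71, edgeR adjusted p = 0.0175). Got2 itself was at a log2 fold change of 0.33 and was not called.

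To describe which genes shared the pattern of a member, centred log2 CPM were compared over the 14 mice by their root mean square difference. The nearest genes to Dbi were Slc25a20 (0.28) and Tbl1xr1 (0.29), and the nearest to Fabp1 were Gstm6 (0.52) and Gstm3 (0.54). Coq10b (0.18) was the nearest to Fabp2, and those nearest to Cd36 were Slc23a1 (0.45) and H2-Q1 (0.59). Fabp4 lay nearest to Lpl (0.65) and Sparc (0.92), and Fabp5 to Nfatc2 (0.32) and Sh2d3c (0.33). For the transport proteins the nearest were Cx3cl1 (0.18) and Epha1 (0.18) for Slc27a4, Trim38 (0.23) and Ormdl3 (0.28) for Slc27a2, and Snx21 (0.24) and Pomgnt1 (0.27) for Slc27a1. Got2 lay nearest to Gadd45gip1 (0.21) and 1700037H04Rik (0.25). Within the set the closest pairs were Slc27a2 with Slc27a4 (0.50) and Fabp2 with Slc27a2 (0.55), and Fabp1 with Dbi stood at 1.01. These differences are not scaled to the spread of each gene, so they cannot be compared between members. The SD of log2 CPM over the 14 mice was 1.60 for Fabp1 and 0.79 for Dbi. It was 0.60 for Fabp2, 0.72 for Slc27a2 and 0.64 for Slc27a4.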

How the data were processed

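Ileum mucosa RNA of 7 WT and 7 IKO mice was sequenced after NEBNext library preparation. Per the labels, reads were aligned with HISAT2 2.0.5 to mm10 and counted with featureCounts 1.5.0-p3, with DESeq2 1.16.1 also listed, and the strand setting is not given in the sources used here. The deposited counts are raw whole numbers per gene. The FPKM deposited by the authors equal counts per kilobase scaled by DESeq2 size factors times 1 constant.

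Genes passing filterByExpr were compared with edgeR 4.0.16 (glmQLFit, glmQLFTest, TMM, genotype as the only term, R 4.3.3), with Benjamini-Hochberg adjustment over the 13846 genes tested and a threshold of 0.05. CPM use TMM factors, and log2 CPM add a prior count of 2. Log2 ratios were compared by exact permutation over all divisions into 7 and 7, adjusted over 4 pairs. The edgeR, DESeq2 and limma-voom fits were run on simulated counts, drawn without differences in tissue composition or mitochondrial share between mice. The limit set there on false calls was not applied to DESeq2. P-values set the difference between genotypes against the spread between mice, and depth was 14749669 to 21557468 counts.

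The alternatives were DESeq2 1.42.0, RLE scaling, other filters, removal of mitochondrially encoded genes, limma 3.58.1 (voom with quality weights, or log2 FPKM with a pseudocount of 1 or 0.1, keeping genes over 0.5 FPKM in 7 or more libraries or all), the replicate number as a block, each mouse left out, and WT 3, WT 4 and IKO 4 left out together in 2 combinations. Covariate fits with enterocyte and distal markers, and the fit without WT 4, IKO 1 and IKO 2, were added after seeing the data. The members, the marker and pathway lists and the tests were chosen with earlier results of these data known. Genes named are the members, Ncor1, genes of those lists and, for each member, the 2 genes of mean log2 CPM at least 1 nearest to it over the 14 mice. Rbp2 and Fabp6 are in 2 lists each. Results for some single genes and sequences are left out of the text.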

Additional observations from a re-analysis of the deposited data

Results flagged for a closer look

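The 10 genes and the 4 log2 ratios were examined for a mouse far from the other 6 of its genotype with Dixon's test, 28 groups in all, and 0 passed the 95% critical value. Chance alone would give about 1.4.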

How the results depend on the processing

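Over all genes, the 1200 calls (607 higher, 593 lower) became 2444 with DESeq2, 1889 with limma-voom and quality weights, 508 without a filter, 648 without WT 3 and IKO 4, 433 without WT 3, WT 4 and IKO 4, and 227 without WT 4, IKO 1 and IKO 2. With 1 mouse left out the count ran from 515 to 1371, and it was below the main count by more than 1.5 times without WT 4 (746), WT 7 (600), IKO 1 (526), IKO 2 (728), IKO 5 (515) or IKO 7 (789). Limma on log2(FPKM + 1) called 774 higher and 295 lower, with a median log2 fold change over all genes of 0.02 against -0.09.

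Of the 2 members called, Dbi passed in 29 of 29 alternatives and Fabp1 in 22 of 29, always higher in IKO mice. The count of members was 1 without WT 3 and IKO 4 (Fabp1 edgeR adjusted p = 0.0557), without WT 3, WT 4 and IKO 4 (0.0978), without WT 4, IKO 1 and IKO 2 (0.175), and 1 to 2 with 1 mouse left out. The range of the Fabp1 adjusted p over all alternatives was 0.00068 to 0.175.

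Of the 7 same-numbered pairs of mice, 1 correlated above 0.1 (range -0.31 to 0.23). The labels do not say whether the replicate numbers pair mice, and these correlations cannot decide it. With the replicate block 362 genes and 1 member were called, and the Fabp1 log2 fold change was 2.33 (edgeR adjusted p = 0.0527). For the Fabp1/Fabp2 ratio, whose difference of 1.87 the block cannot alter, the exact sign-flip test gave an adjusted p of 0.0625, the smallest that 7 pairs allow when every pair goes 1 way, so that this test could not pass. The ratio passed in the other 16 of 17 alternatives.

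No other member passed in any alternative. Fabp4 turned higher with limma-voom (0.68), log2(FPKM + 0.1) (0.13), the replicate block (0.11), without WT 3, WT 4 and IKO 4 (1.41), and ran from -1.10 to 0.12 with 1 mouse left out, the latter without WT 3. Slc27a2, at 0.00, turned lower with at least 10 counts in every sample (-0.038), without WT 3 and IKO 4 (-0.0060), without WT 3, WT 4 and IKO 4 (-0.071), without WT 4, IKO 1 and IKO 2 (-0.14) and with the enterocyte covariate (-0.32), and ran from -0.15 to 0.23 with 1 mouse left out. Slc27a4 was -0.30 with the enterocyte covariate. The Slc27a4/Slc27a2 ratio was 0.24 without WT 3 and IKO 4, and -0.21 to 0.093 with 1 mouse left out. The cause of these changes was not tested. Fabp4, Fabp5 and Slc27a1 had as few as 32 to 47 counts in a library, which limits their precision.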
